A study of Mus musculus with 26 samples.

Results

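Wfdc2, Laptm5, Ooep, Hspb1 and Bcat1 were measured in 13 mouse cell lines and are described here as a set of 5 genes among the 10660 genes tested. They were selected on the data themselves, as the genes outside the classical pluripotency network whose signal was furthest above that of germline stem cells in pluripotent lines, so the size of that difference is a description and carries no test. The array held 8 probes whose platform gene symbol is 1 of the 5, with 2 probes for Wfdc2, 3 for Bcat1 and 1 for each of the others, and all 8 passed the filter on dim probes.

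The study asked whether pluripotent cells keep traces of the route or the cell they came from. Total RNA of each line was hybridised to 2 Illumina BeadChips, a pair of technical replicates, which makes 26 arrays. Germline stem cells (GSC, 2 lines) are cultured stem cells of the germline. Induced pluripotent stem cells made from GSC (iPSC, 4 lines) and germline-derived pluripotent stem cells (gPSC, 4 lines) are the pair of pluripotent groups of germline origin, and the labels do not say how the gPSC arose or which factors made the iPSC. Embryonic stem cells (ESC), fibroblasts and an iPSC line of fibroblast origin (Fib-iPSC) were each represented by 1 line, so those groups have no spread of their own. All lines, the controls included, share the OG2 strain background, a mouse strain with a green fluorescent reporter under Pou5f1 control. The line was the unit of replication for every comparison, and the GSC, ESC, fibroblast and Fib-iPSC values each rest on 1 or 2 lines.

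The 5 genes belong to unrelated pathways. Wfdc2 encodes a small secreted protein of the whey acidic protein family of protease inhibitors and is best known from epithelia. Laptm5 encodes a lysosomal membrane protein known mainly from blood cells, where it sends antigen receptors to the lysosome. Ooep encodes a subunit of the subcortical maternal complex, which the oocyte stores and the early embryo needs. Hspb1 encodes a small heat shock protein that holds unfolded proteins and binds the actin cytoskeleton, and Bcat1 encodes the cytosolic aminotransferase that moves the amino group of leucine, isoleucine and valine onto 2-oxoglutarate to give glutamate.

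The promoters of the 5 genes are shown because all 5 genes were higher in pluripotent lines than in GSC, the difference on which they were chosen, and because their functions differ. Each is the RefSeq window of 300 bases in GRCm38.p6, 250 before and 50 after the gene's start, written 5′ to 3′ on the strand of the gene. Capitals mark matches, on either strand, to 9 motifs: the octamer ATGCAAAT, the Sox motif AACAAAG, the Esrrb motif TCAAGGTCA, the GC box GGGCGG, the Klf motif GGGTGTG, the E-box CACGTG, the heat shock element GAANNTTC, the Stat motif TTCNNNGAA and the TATA box TATAAA. The heat shock and Stat letters can overlap each other, and no matches overlapped in these windows.
Wfdc2 (chr2:164562465-164562764, plus strand): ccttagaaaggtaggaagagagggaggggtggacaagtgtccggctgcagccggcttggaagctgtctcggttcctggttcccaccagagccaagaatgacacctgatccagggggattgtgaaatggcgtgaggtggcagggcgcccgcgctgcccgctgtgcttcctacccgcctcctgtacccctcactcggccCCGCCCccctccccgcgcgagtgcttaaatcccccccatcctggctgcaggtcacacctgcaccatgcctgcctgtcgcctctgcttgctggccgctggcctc
Laptm5 (chr4:130913066-130913365, plus strand): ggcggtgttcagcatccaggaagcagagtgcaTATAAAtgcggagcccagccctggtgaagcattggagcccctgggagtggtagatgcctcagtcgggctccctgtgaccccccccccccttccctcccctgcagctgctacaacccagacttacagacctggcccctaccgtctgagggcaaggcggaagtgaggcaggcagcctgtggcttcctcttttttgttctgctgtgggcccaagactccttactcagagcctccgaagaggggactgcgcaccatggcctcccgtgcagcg
Ooep (chr9:78378539-78378838, minus strand): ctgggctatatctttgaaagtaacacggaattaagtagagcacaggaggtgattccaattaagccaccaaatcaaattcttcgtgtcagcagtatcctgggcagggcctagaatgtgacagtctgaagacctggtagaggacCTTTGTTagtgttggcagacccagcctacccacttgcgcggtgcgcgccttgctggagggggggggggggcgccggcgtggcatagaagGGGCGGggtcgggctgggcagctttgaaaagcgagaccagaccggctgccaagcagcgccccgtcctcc
Hspb1 (chr5:135887669-135887968, plus strand): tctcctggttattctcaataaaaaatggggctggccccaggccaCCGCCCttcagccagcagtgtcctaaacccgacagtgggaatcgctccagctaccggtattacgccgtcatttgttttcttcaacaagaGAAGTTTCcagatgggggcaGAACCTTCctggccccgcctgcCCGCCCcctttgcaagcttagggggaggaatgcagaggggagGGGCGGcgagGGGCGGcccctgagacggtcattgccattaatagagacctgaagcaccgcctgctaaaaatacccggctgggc
Bcat1 (chr6:145076108-145076407, minus strand): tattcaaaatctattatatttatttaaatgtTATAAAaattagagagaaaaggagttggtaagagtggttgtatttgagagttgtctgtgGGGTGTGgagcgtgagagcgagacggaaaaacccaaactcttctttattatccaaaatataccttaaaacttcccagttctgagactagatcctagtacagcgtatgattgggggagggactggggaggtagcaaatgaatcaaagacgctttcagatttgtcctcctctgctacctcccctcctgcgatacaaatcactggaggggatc

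No motif was common to all 5 promoters. The GC box, present in 35.7% of the 32851 RefSeq promoter windows, was found in Wfdc2, Ooep and Hspb1, with 4 copies in Hspb1. Hspb1 also held 2 heat shock elements, at -117 and -97 from its start, a motif in 7.86% of all windows. Ooep held a Sox match at -108, a motif in 5.85% of windows. Bcat1 held a Klf match at -160 (7.95% of windows), and Bcat1 and Laptm5 each held the letters TATAAA (13.6% of windows) far upstream, at -219 and -218. The octamer, Esrrb, E-box and Stat letters, in 1.74%, 0.423%, 7.15% and 8.3% of windows, were in none of them. Of the other RefSeq windows of these genes, that of Wfdc2 is shifted by a single base with the same match, and that of Bcat1 held no match. The base composition also differed, from 41% G and C in the Bcat1 window shown to 65.3% in Wfdc2, against a median of 52.7% over all windows. The other Bcat1 window held 58.7%, so the low end depends on which window is shown. A match describes these letters only.

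Each array detected between 12097 and 13808 of 25697 probes, at a detection p under 0.05, and the arrays of a line correlated at 0.9945 or above. Values are normalised log2 levels on which the array floor, the lowest level of a detected probe, had a median of 4.63. Levels of different genes were read by different probes and are not compared with each other. The raw intensities of the fibroblast arrays were brighter, with medians of 134 and 143 against 89.2 to 103 on the other arrays, before normalization. Most marker genes matched the labels. From GSC to iPSC, 12 of 14 pluripotency markers rose and 8 of 11 germline markers fell. Over all 10660 genes, 11.1% were called higher and 1244 genes lower. Col1a1 reached 12.23 in the fibroblast line. Some markers went the other way. The germline marker Etv5 rose by 2.02 in iPSC and 2.14 in gPSC. The fibroblast markers Lum and Dcn were at 5.21 and 7.30 in the fibroblast line, against 6.05 and 7.96 in GSC. The pluripotency marker Tdgf1 was undetected in the Fib-iPSC line. Line gPSC 1 stood apart from the other gPSC lines in its 11 fibroblast markers, with a mean log2 level of 8.67 against 5.54 to 7.22, and 9.12 in the fibroblast line.

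All 5 genes were higher in every one of the 10 pluripotent lines than in both GSC lines, a separation that the choice of the genes fixes. For scale, 22.8% of all genes passed the test of iPSC against GSC and 21.6% that of gPSC against GSC, where a call needs an adjusted p under 0.05 in limma and at least a 2-fold difference. The fibroblast line, whose data did not enter the choice, split the set. Wfdc2, on its brighter probe, and Laptm5 were low but detected there, and Ooep was not detected. Hspb1 and Bcat1 were near or above their levels in pluripotent lines. Against the fibroblast line, Wfdc2, Laptm5 and Ooep were far higher in the Fib-iPSC line, while Hspb1 was 1.4-fold higher and Bcat1 lower. That contrast is 1 line against 1 line without a test, and the rise from GSC was fixed by the choice. For Hspb1 and Bcat1 the description as genes that come on with pluripotency thus rests on GSC alone. In bulk RNA, a larger share of expressing cells and more RNA per cell cannot be told apart.

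**Figure D1:**
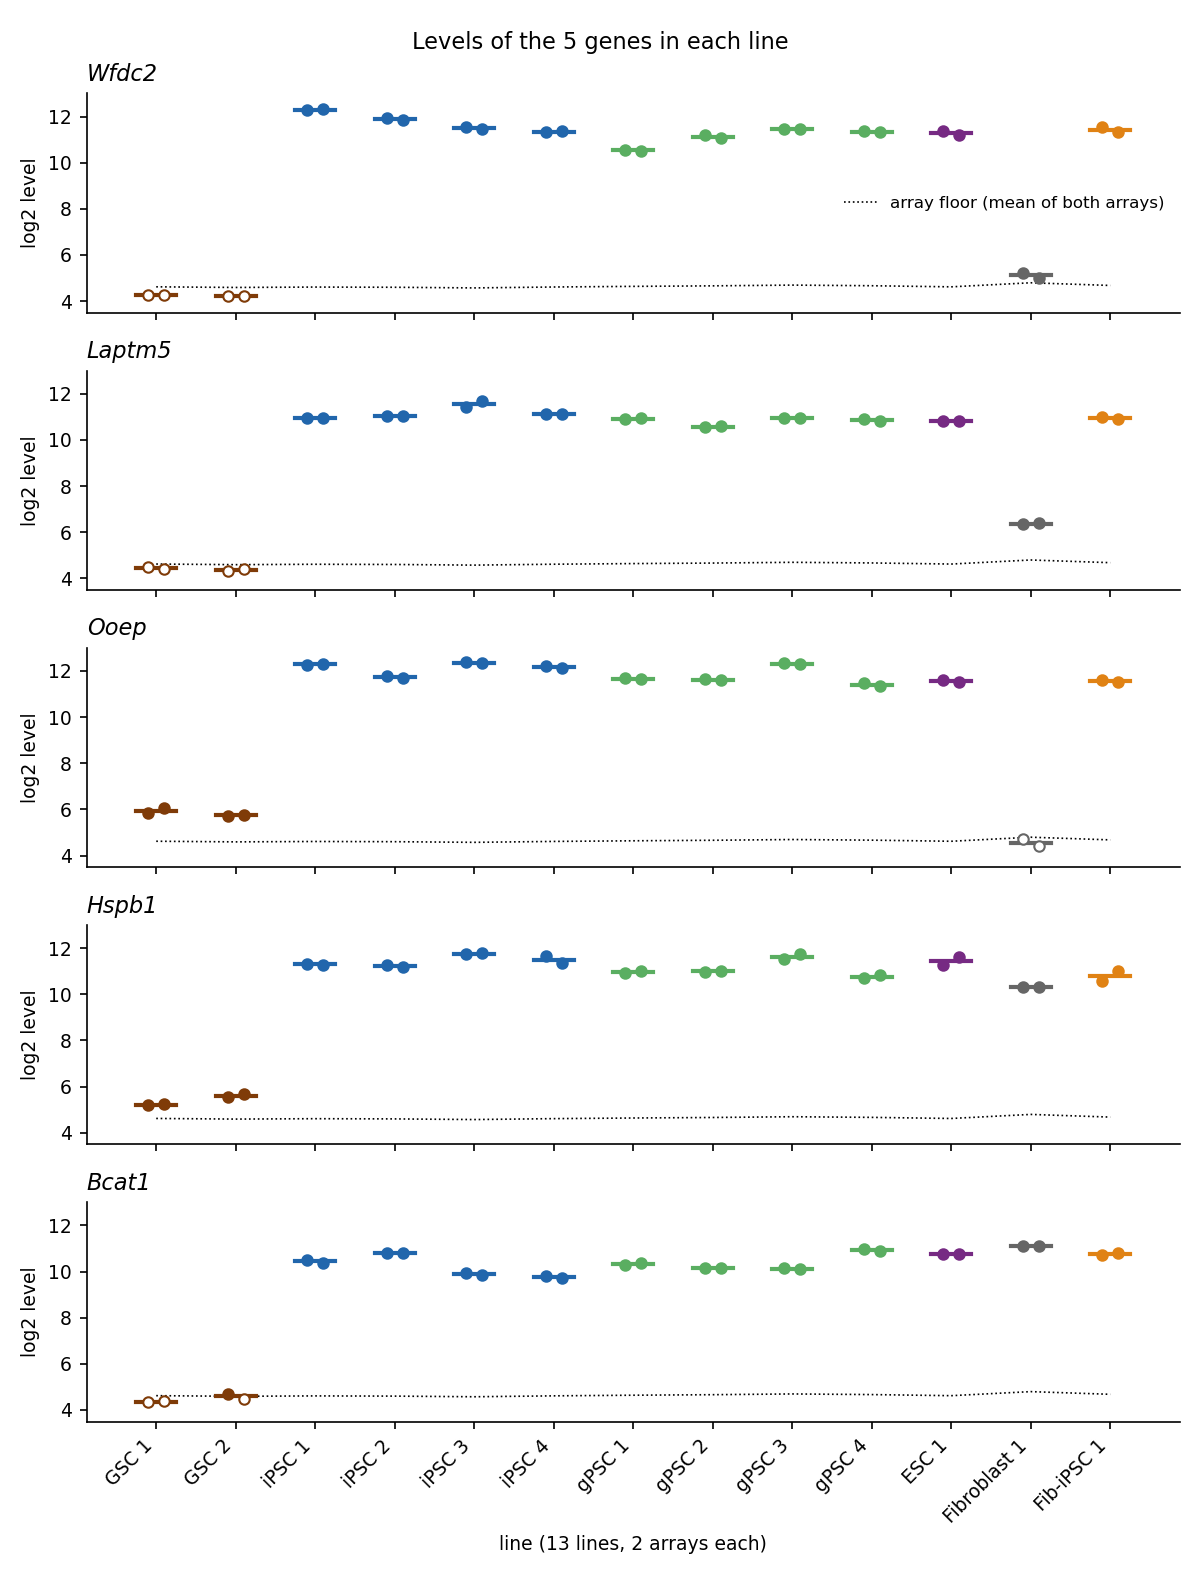
Normalised log2 level (y axis) of the 5 genes in each of the 13 lines (x axis), with 1 panel per gene. Points are single arrays, filled where the probe was detected, short bars are line means and the dotted line is the array floor; both GSC lines lie far below the 10 pluripotent lines in every panel, and the fibroblast line is high for Hspb1 and Bcat1 only.

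Wfdc2, the secreted protease-inhibitor family member, was undetected on all 4 GSC arrays and detected on every array of the pluripotent lines. Its level was 4.28 and 4.24 in GSC 1 and 2. It was 12.30, 11.89, 11.50 and 11.34 in iPSC 1 to 4, and 10.53, 11.12, 11.47 and 11.34 in gPSC 1 to 4. The iPSC and gPSC ranges overlapped, with iPSC 1 the highest and gPSC 1 the lowest of the pluripotent lines. The ESC line was at 11.29, the Fib-iPSC line at 11.44 and the fibroblast line at 5.12, where both arrays detected it.

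Because GSC gave no detected signal, each fold of Wfdc2 is a lower bound for 1 probe under the normalization used here, taken against the array floors. On the first probe Wfdc2 was at least 142-fold higher in iPSC (mean 11.76 ± 0.43, SD, n = 4) than in GSC (4.26 ± 0.02, n = 2). It was at least 91.1-fold higher in gPSC (11.12 ± 0.42, n = 4) and at least 103-fold higher in the ESC line. Without background correction the differences from GSC were smaller, at 5.23 log2 units in iPSC and 4.61 in gPSC. The second Wfdc2 probe, also undetected in GSC, gave bounds of at least 17-fold, 9.56-fold and 10.9-fold. That probe again placed iPSC 1 highest, at 9.51, and gPSC 1 lowest, at 7.26. Between the fibroblast and the Fib-iPSC line, 1 line each and without a test, the first probe differed by 6.32 log2 units, or 79.7-fold.

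Laptm5, the lysosomal membrane protein of blood cells, was also undetected on all 4 GSC arrays, at 4.45 in GSC 1 and 4.37 in GSC 2. Its level was 10.94, 11.03, 11.55 and 11.12 in iPSC 1 to 4 and 10.92, 10.58, 10.95 and 10.86 in gPSC 1 to 4. The ESC line was at 10.82 and the Fib-iPSC line at 10.94. Laptm5 was the most even of the 5 over the pluripotent lines, with iPSC 3 the highest, and its iPSC and gPSC ranges met between 10.94 and 10.95. The bounds were at least 94.1-fold for iPSC, 74.5-fold for gPSC and 74.2-fold for ESC over GSC, under the normalization used here. Without background correction the differences from GSC were smaller, at 4.57 log2 units in iPSC and 4.25 in gPSC. The fibroblast line held a detected 6.36, and the Fib-iPSC line was 23.9-fold above it.

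Markers of the blood cells for which Laptm5 is known were measured beside it. Of 14 blood and macrophage markers, 9 passed the filter, and none passed the test in iPSC or gPSC against GSC. Their mean log2 level was between 4.47 and 4.87 in the 12 lines other than the fibroblasts, GSC included, and 5.29 in the fibroblast line. Ptprc, Tyrobp, Fcer1g and Fcgr3 were on the array and detected on both arrays of no line. Lyz2, the macrophage lysozyme, was at 4.33 in iPSC and 4.44 in gPSC and at 7.55 in the fibroblast line, where Laptm5 was 6.36. Coro1a, an actin-binding protein of leukocytes, was detected on every array of GSC, iPSC and gPSC, at means of 6.82, 5.78 and 6.16. The part of blood cells in the Laptm5 level was not tested.

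Ooep, the maternal-complex subunit, differed from the former pair in that GSC already expressed it. Its level was 5.94 and 5.75 in GSC 1 and 2, detected on all 4 arrays. It was 12.28, 11.75, 12.36 and 12.18 in iPSC 1 to 4 and 11.66, 11.62, 12.31 and 11.41 in gPSC 1 to 4. Line 3 was the highest in both groups, and the ranges overlapped. The ESC and Fib-iPSC lines were both at 11.56. The difference from GSC was 6.30 log2 units in iPSC, 5.91 in gPSC and 5.71 in ESC, or 78.6-fold, 59.9-fold and 52.5-fold. Ooep was the only gene of the 5 below GSC in the fibroblast line, at 4.55 and undetected on both arrays, so that the Fib-iPSC line was at least 109-fold higher than the fibroblasts.

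Hspb1, the small heat shock protein, was detected on all 4 GSC arrays at low levels of 5.22 and 5.61. It was 11.30, 11.23, 11.76 and 11.50 in iPSC 1 to 4 and 10.98, 10.999, 11.63 and 10.77 in gPSC 1 to 4. Line 3 was again the highest in both groups, and gPSC 3 was the only gPSC line inside the iPSC range. The difference from GSC was 6.03 log2 units in iPSC, 5.68 in gPSC and 6.04 in ESC, or 65.4-fold, 51.2-fold and 65.9-fold. Fibroblasts expressed Hspb1 at 10.30, which is 80.8% of the way from GSC to ESC on the log2 scale. The Fib-iPSC line, at 10.79, was only 1.4-fold above them. That order holds after normalization only. Raw intensities were 3805 and 3812 on the fibroblast arrays and 1644 and 1901 on the Fib-iPSC arrays. The authors' deposited values, at 10.08 and 10.07 against 10.35 and 10.76, kept the normalised order. Comparisons with the fibroblast line were not among the alternatives tried.

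Bcat1, the cytosolic branched-chain aminotransferase, was detected on 1 of 4 GSC arrays, at 4.36 in GSC 1 and 4.59 in GSC 2. It was 10.45, 10.82, 9.89 and 9.75 in iPSC 1 to 4 and 10.33, 10.15, 10.13 and 10.93 in gPSC 1 to 4. The iPSC lines spanned the wider range, with iPSC 3 and 4 below all gPSC lines. The ESC and Fib-iPSC lines lay at 10.74 and 10.76, near the upper end. The difference from GSC was 5.75 log2 units in iPSC, 5.91 in gPSC and 6.27 in ESC, and 5.60, 5.76 and 6.12 with undetected values raised to the array floor. The fibroblast line was the highest of all 13 lines at 11.10, and Fib-iPSC minus fibroblast was -0.34. Raw intensities of this probe lay further apart, at 6577 and 6681 on the fibroblast arrays and 1810 and 1660 on the Fib-iPSC arrays.

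The 3 Bcat1 probes gave the same direction with different sizes. The other probes put iPSC 2.00 and 1.59 log2 units above GSC, and the fibroblast line was again the highest of all lines on each, at 6.94 and 6.56. All 3 probes had iPSC 3 and iPSC 4 as the lowest pluripotent lines. The highest pluripotent line was gPSC 4 on the first probe and iPSC 2 on the other probes. The fold of Bcat1 therefore depends on the probe.

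High Bcat1 and Hspb1 in the fibroblast line bear on these cultures because fibroblasts may accompany stem cells as feeders, and the labels do not say whether they did. The fibroblast-marker mean was 6.02 and 6.41 in the GSC lines, inside the range of 5.02 to 6.51 in the iPSC lines. It was higher than in both GSC lines in gPSC 1 (8.67), gPSC 4 (7.22), the ESC line (6.69) and the Fib-iPSC line, which lay between gPSC 4 and the ESC line. It was 6.32 and 5.54 in gPSC 2 and 3. The median difference of the list in gPSC was 0.54 against 0.01 over all genes. Bcat1 was 4.36 and 4.59 in GSC against 9.75 to 10.82 in iPSC. None of the 11 fibroblast markers passed the test in iPSC or gPSC against GSC. The part of fibroblasts in the Bcat1 and Hspb1 levels was not tested.

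Among all 10660 genes ranked by the smaller of the iPSC and gPSC differences from GSC, the 5 genes took ranks 1, 4, 7, 8 and 9. Wfdc2 led with 6.86 log2 units, ahead of the pluripotency factor Nanog at 6.80 and Dnmt3l, the cofactor of the DNA methyltransferases, at 6.68. Laptm5 followed at 6.41. The RNA-binding protein gene L1td1 and the homeobox gene Rhox5 lay at 6.21 and 5.97, before Ooep at 5.91, Bcat1 at 5.75 and Hspb1 at 5.68. The next gene outside the set was Otx2, a homeobox factor, at 5.37, which shows how near the edge of the set lies. These ranks repeat what chose the genes and are given as a description.

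The fibroblast level set Hspb1 and Bcat1 apart from most genes of this kind. Of 34 genes at least 16-fold higher in both iPSC and gPSC than in GSC, 22 had a fibroblast level less than 10% of the way from GSC to ESC. Wfdc2 stood at 12.3% and Laptm5 at 30.4%, while Ooep was at -22.7%. Of the 34, 7 reached 50% or more in fibroblasts, and Hspb1 (80.8%) and Bcat1 (106%) were among them. The mitochondrial isocitrate dehydrogenase gene Idh2 was another of the 7. Over all genes, 15.6% were at least 2-fold higher in the Fib-iPSC line than in the fibroblast line, as were Wfdc2, Laptm5 and Ooep.

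**Figure D2:**
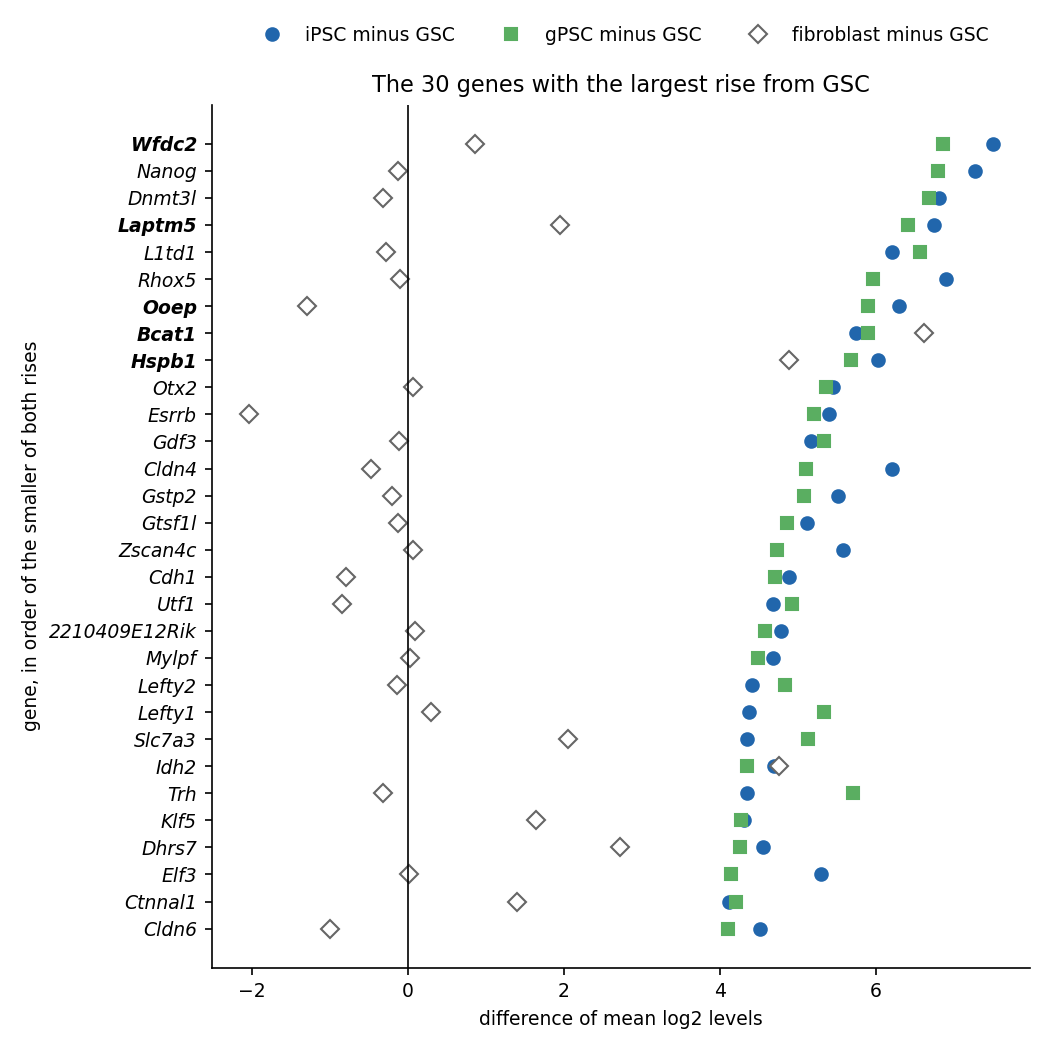
Difference of mean log2 levels from GSC (x axis) for the 30 genes with the largest rise (y axis, members in bold): iPSC as circles, gPSC as squares and the fibroblast line as diamonds. Most fibroblast diamonds lie near 0. That of Bcat1, at 6.62, lies above its own iPSC and gPSC values and that of Hspb1, at 4.89, below its own. Idh2, outside the set, is likewise high, at 4.77.

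Whether the 5 genes differ between routes to pluripotency is a question that their selection did not use. Wfdc2, Laptm5, Ooep and Hspb1 had higher means in iPSC than in gPSC and Bcat1 a lower one, but none of the 5 passed the test. Wfdc2 differed most, by 0.64 ± 0.25 log2 units (SE, 4 against 4 lines; 95% confidence interval 0.08 to 1.20; limma adjusted p = 0.627). Laptm5 differed by 0.34 ± 0.15, Ooep by 0.39 ± 0.20 and Hspb1 by 0.35 ± 0.20, each at the same limma adjusted p of 0.627. Bcat1 differed by -0.16 ± 0.26, with an interval of -0.75 to 0.43 (limma adjusted p = 0.823). The intervals of Laptm5, Ooep, Hspb1 and Bcat1 lie within a 2-fold difference either way and that of Wfdc2 reaches 2.30-fold. Over all genes 0% were called by limma in this comparison, with 830 genes at an unadjusted p under 0.05, while the authors' deposited values gave 1 call and all 26 arrays, with the line as a random block, gave 3.

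The size of the Wfdc2 difference rested on a pair of lines. Without gPSC 1, the line with the highest fibroblast markers among pluripotent lines, it was 0.44, and without iPSC 1 it was 0.46. Neither was called. The part of the fibroblast-like signal of gPSC 1 in its Wfdc2 level was not tested.

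Against the ESC line, iPSC and gPSC likewise showed no call for any of the 5 genes, where 0.225% and 0.244% of all genes were called. In iPSC minus ESC, Wfdc2 differed by 0.47 ± 0.39, Laptm5 by 0.34 ± 0.23 and Ooep by 0.58 ± 0.32. Hspb1 differed by -0.01 ± 0.32 and Bcat1 by -0.52 ± 0.42, and the limma adjusted p was 0.9995 for each of the 5. In gPSC minus ESC the differences ran from -0.37 for Hspb1 to 0.19 for Ooep, with limma adjusted p from 0.978 to 0.999. The ESC line lay inside the gPSC range for every gene. It lay below all iPSC lines for Wfdc2, Laptm5 and Ooep, and inside the iPSC range for Hspb1 and Bcat1. How often a single line lies outside such a range over all genes was not counted. With 1 ESC line the intervals were wide. That of Bcat1 in iPSC minus ESC ran from -1.45 to 0.42.

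The source cell of the iPSC gave no call either. Limma called 0% of genes between the germline-derived iPSC and Fib-iPSC, with 480 genes at an unadjusted p under 0.05, 1 call in the authors' deposited values and 5 on all 26 arrays with the line as a random block. In iPSC minus Fib-iPSC, Hspb1 differed by 0.66 ± 0.32 (interval -0.05 to 1.37) and Ooep by 0.59 ± 0.32. Wfdc2 differed by 0.32 ± 0.39, Laptm5 by 0.22 ± 0.23 and Bcat1 by -0.53 ± 0.42, with limma adjusted p from 0.725 to 0.78 over the 5 genes. Bcat1 and Hspb1, the genes that fibroblasts already expressed, thus lay on opposite sides of the germline-derived mean, Bcat1 higher and Hspb1 lower in the Fib-iPSC line, within the error of 1 line.

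**Figure D3:**
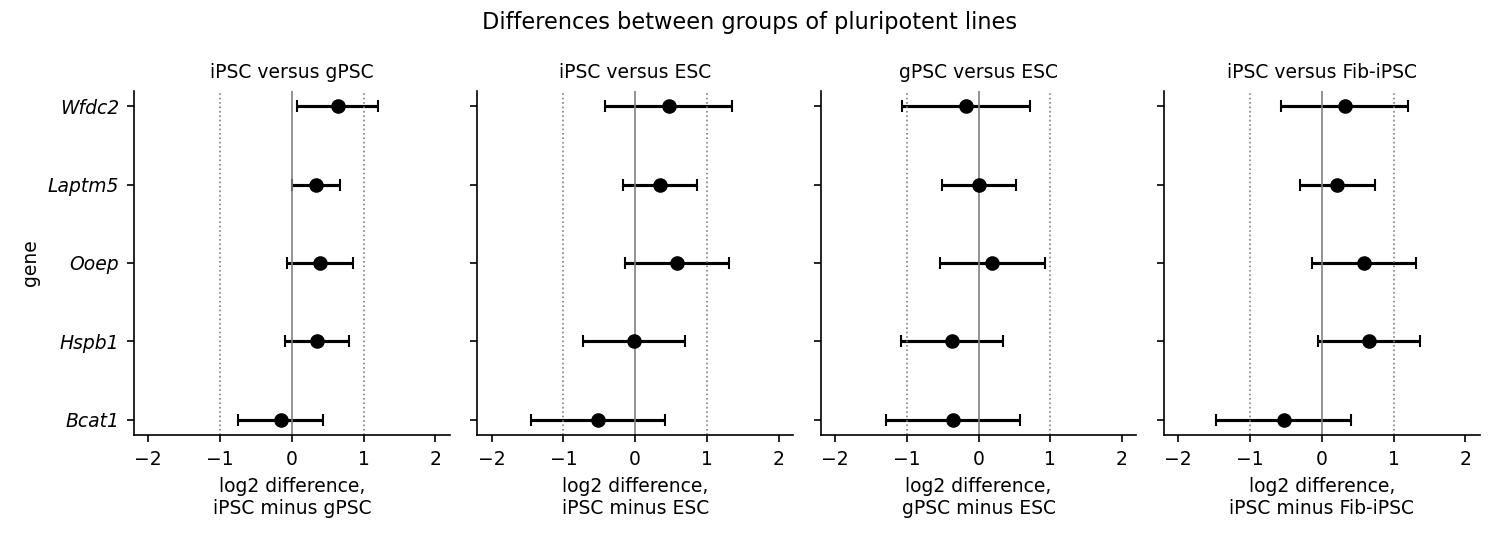
Difference of mean log2 levels (x axis) between groups of pluripotent lines for the 5 genes (y axis), with 95% confidence intervals from limma as bars and dotted lines at a 2-fold difference. All intervals but those of Wfdc2 and Laptm5 in iPSC versus gPSC include 0, and no difference passed the adjusted test.

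The 5 genes differed in how evenly the pluripotent lines expressed them. The SD over the 10 lines was 0.46 for Wfdc2, 0.41 for Bcat1, 0.37 for Ooep, 0.35 for Hspb1 and 0.25 for Laptm5, and the median over all genes was 0.24. The SD between the arrays of a line was between 0.06 and 0.14 for the 5 probes. Wfdc2 was the most variable, 3.39-fold from its lowest to its highest line, and 16% of genes had a larger SD. Laptm5 sat at the middle of all genes, with 48.6% above it. Ooep and Hspb1 shared their extremes, with iPSC 3 and gPSC 3 at the top and gPSC 4 at the bottom, whereas Bcat1 was lowest in iPSC 4 and highest in gPSC 4.

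**Figure D4:**
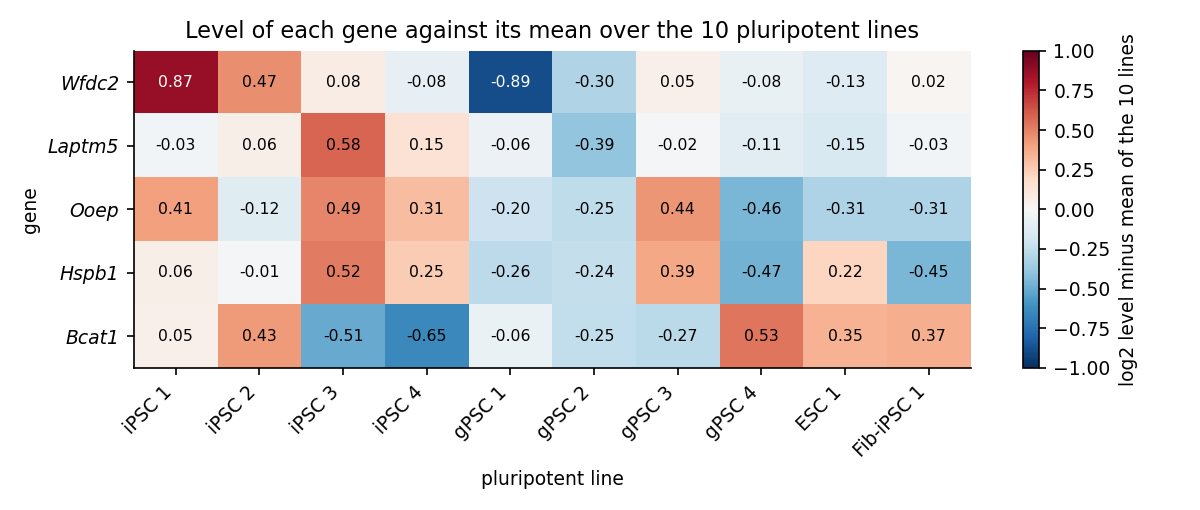
Log2 level of each gene (rows) in each of the 10 pluripotent lines (columns) minus the mean of that gene over the 10 lines, as colour and as printed values. Wfdc2 runs from -0.89 in gPSC 1 to 0.87 in iPSC 1, and Bcat1 is low in iPSC 3 and iPSC 4 where Hspb1 and Ooep are above their means.

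Likeness to other genes was measured as the root mean square difference between log2 profiles over the 13 lines after centring each gene on its mean. The step between GSC and the 10 pluripotent lines, on which the 5 genes were chosen, makes up much of these distances, so that other genes with a large rise had to come near and the neighbours are a description. The profile nearest to Wfdc2 was Nanog (0.42), before Dnmt3l (0.55) and Rhox5 (0.60), and the profile nearest to Ooep was again Nanog (0.43), before Dnmt3l (0.45) and the orphan receptor gene Esrrb (0.49). Laptm5 was nearest to Wfdc2 (0.62), Otx2 (0.62) and the TGF-beta family ligand gene Gdf3 (0.68).

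Hspb1 and Bcat1 had other neighbours. Hspb1 lay nearest to Idh2 (0.58), the dehydrogenase gene Dhrs7 (0.67) and Plekha2 (0.70), which encodes a phosphoinositide-binding adaptor, and all of these were also high in the fibroblast line. Bcat1 lay nearest to Hspb1 (0.72), Idh2 (0.87) and the prostacyclin synthase gene Ptgis (0.92). Within the set the closest pair was Wfdc2 and Laptm5 (0.62) and the most distant was Ooep and Bcat1 (2.22).

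The relatives and pathway partners of each gene were followed in lists of other genes, to see whether a gene moved with its family. The lists were drawn up with results of these data known, so their counts are descriptions, to be read against the 11.1% of all genes called higher in iPSC than in GSC and the 10.2% called higher in gPSC. All the comparisons with GSC share the same 2 control lines. Adjusted p-values are from limma over all genes.

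The family of Wfdc2 was represented by few genes, and nothing is read from its counts. Of 6 other tested WFDC genes, 0 were called higher and 1 lower in iPSC, and 1 higher and 1 lower in gPSC, with a median difference in iPSC of 0.06 log2 units against -0.02 over all genes. Limma called Eppin, the epididymal inhibitor, lower in iPSC by -1.61 ± 0.20 (adjusted p = 0.000229). Slpi, the secretory leukocyte inhibitor, was called higher in gPSC only, by 1.44 ± 0.48 (limma adjusted p = 0.0371), and differed by 0.41 ± 0.48 in iPSC. The test of iPSC against gPSC called no gene. On quantile-normalised log2 intensities without background correction the Eppin call in iPSC and the Slpi call in gPSC were both lost.

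Markers of simple epithelium, the tissue type from which Wfdc2 is best known, were measured beside it. Of 12 tested genes 6 rose and 0 fell in iPSC, and 3 rose and 2 fell in gPSC, with median differences of 1.501 and 0.673 log2 units. In iPSC Cldn4, a tight junction claudin, rose by 6.21 ± 0.39, Cdh1, the adhesion protein E-cadherin, by 4.89 ± 0.18, Cldn6, another claudin, by 4.52 ± 0.45 and the keratin gene Krt8 by 4.31 ± 1.13. Spint1 and Spint2, protease inhibitors of epithelia, were called lower in gPSC, at -1.105 ± 0.175 and -1.41 ± 0.42, calls that were lost without background correction. The mean log2 level of the list was 5.499 and 5.633 in GSC, 6.97 to 8.62 in iPSC, 6.45 to 7.72 in gPSC and 4.57 in the fibroblast line. It was highest in iPSC 3, whereas Wfdc2 was highest in iPSC 1, and gPSC 1 was the lowest pluripotent line for both. The part of an epithelial state of the cells in the Wfdc2 level was not tested.

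Laptm5 had a mixed neighbourhood of lysosomal membrane genes. In iPSC 5 of 15 rose and 3 fell, with a median difference of -0.09. Scarb2, a lysosomal receptor, rose by 2.09 ± 0.22, Nedd4, a ubiquitin ligase that acts with LAPTM proteins, by 1.75 ± 0.18, and the relative Laptm4b by 1.48 ± 0.19 log2 units. Ctns, the lysosomal cystine exporter, fell by 1.52 ± 0.15. In gPSC 5 rose and 2 fell. The rises depended on the background correction, with 0 called in iPSC and 1 in gPSC on quantile-normalised log2 intensities, and without gPSC 1 the count of lower genes in gPSC was 4.

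Of the other 6 tested genes of the maternal complex and its KH-domain relatives, 3 rose in iPSC and 2 in gPSC, and none fell. Dppa5a, a KH-domain relative used as a pluripotency marker, rose by 4.11 ± 0.16 and Khdc3, a partner of Ooep in the complex, by 2.67 ± 0.70 log2 units in iPSC (limma adjusted p = 0.0119). Padi6, an oocyte protein linked to the complex, rose in iPSC by 1.40 ± 0.32 and was at 0.97 ± 0.32 in gPSC. The core partners Nlrp5 and Tle6 did not pass, at -0.33 ± 0.12 and 0.44 ± 0.80 in iPSC. Nlrp5, at 4.38 in iPSC, was undetected on every iPSC and gPSC array. It was at 4.71 in GSC and detected on 3 of 4 arrays, so its difference lies around the floor. Among 5 tested oocyte genes outside the complex, Dppa3, a maternal factor also expressed in pluripotent cells, rose by 3.29 ± 0.37, and Gdf9, Zp3 and Nobox were not called. In gPSC Dppa3 rose by 3.02 ± 0.37 and Btg4, an adaptor of mRNA decay in oocytes, fell by 2.29 ± 0.49. Without background correction 1 of the 6 genes was called in iPSC. The authors' deposited values gave 3 higher and 1 lower in iPSC, and 4 higher and 1 lower in gPSC.

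The counts of other heat shock genes called higher lay near the share over all genes, and nothing is read from them. Of 5 other small heat shock protein genes, 1 rose in iPSC and in gPSC: Hspb8, a small heat shock protein that works with Bag3, by 3.59 ± 0.34 and 3.12 ± 0.34 log2 units. Like Hspb1 it was high in fibroblasts, at 8.56. Cryab and Hspb6 were not called, at 0.80 ± 0.65 and 0.42 ± 0.34 in iPSC. Of 16 other chaperones and regulators, 2 rose and 1 fell in iPSC, with a median of 0.06: Mapkapk3, a kinase of small heat shock proteins, rose by 2.48 ± 0.19 and Hsp90aa1 by 1.28 ± 0.22, while the stress-inducible Hspa1a fell by 2.37 ± 0.20. In gPSC 2 rose and 2 fell.

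Many other branched-chain amino acid genes were, like Bcat1, higher in iPSC and gPSC than in GSC. Of 17 other tested genes of this breakdown pathway, 8 rose in iPSC and 8 in gPSC, and none fell. Bcat2, the mitochondrial form of the aminotransferase, rose by 2.59 ± 0.24 in iPSC and 3.00 ± 0.24 in gPSC. Dbt, a subunit of the keto acid dehydrogenase, rose by 2.47 ± 0.13, Ppm1k, the phosphatase that activates that enzyme, by 2.45 ± 0.33, and Pcca, a propionyl-CoA carboxylase subunit, by 1.87 ± 0.23 log2 units in iPSC. Bckdha, another dehydrogenase subunit, was at -0.79 ± 0.15, short of a 2-fold difference. The median over the list was 0.93 in iPSC and 0.92 in gPSC, against -0.02 and 0.01 over all genes. The mean log2 level of the list was 6.69 and 6.73 in GSC and 7.57 to 7.75 in the pluripotent lines. At 7.35, the fibroblast line was also above both GSC lines. On quantile-normalised log2 intensities the counts were 4 and 3, and without gPSC 1 they were 8 and 7.

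**Figure D5:**
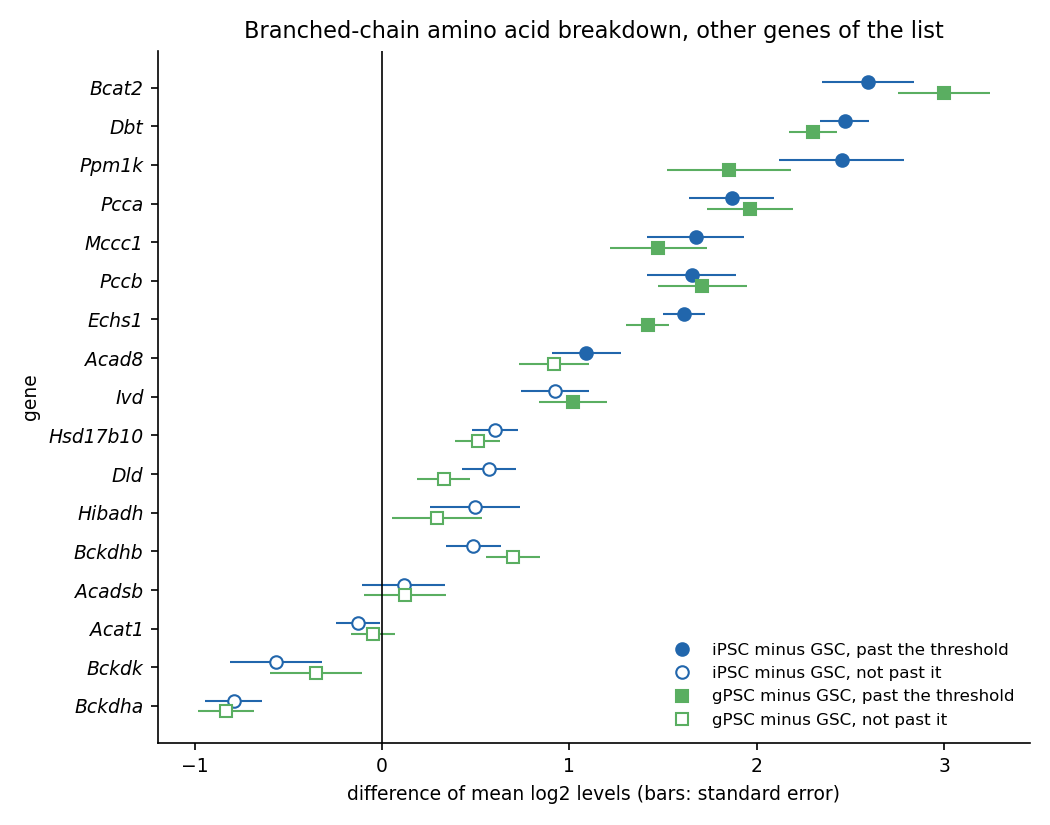
Difference of mean log2 levels from GSC (x axis, bars are standard errors) for the 17 other tested genes of branched-chain amino acid breakdown (y axis), iPSC as circles and gPSC as squares, filled where limma called the difference. The differences run from -0.83 for Bckdha in gPSC to 3.00 for Bcat2 in gPSC.

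Enzymes and transporters around the glutamate made by Bcat1 gave a similar count, with 6 of 10 called higher and 1 lower in iPSC, and 6 higher and 0 lower in gPSC. Their mean log2 level was 7.60 and 7.65 in GSC, 8.47 to 8.86 in the pluripotent lines and 8.43 in the fibroblast line. Got1, the cytosolic aspartate aminotransferase, rose by 2.53 ± 0.26 and Glud1, glutamate dehydrogenase, by 1.87 ± 0.17 log2 units in iPSC. Sesn2, a leucine sensor, rose by 1.71 ± 0.23. The leucine transporter gene Slc7a5 fell by 1.02 ± 0.23 in iPSC and was at -0.68 ± 0.23 in gPSC. Without background correction 3 of the 10 were called higher and none lower in iPSC, so the Slc7a5 call was lost.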

How the data were processed

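The deposited table of 26 arrays holds intensities and detection p-values of an Illumina mouse BeadChip; the tools listed in the submitters' processing notes are lumi and BeadStudio 3.2. Per the file headers each array has an intensity column and a detection p-value column. The authors' deposited processed values, on a log2 scale with a median of 2.89 on each array and in nearly the same rank order as the intensities, served as an alternative; how they were scaled is not given in the sources used here. The other steps were computed here with limma 3.58.1 in R 4.3.3. The function neqc corrected the background, with the negative-control distribution derived from each array's detection p-values, added an offset of 16 and quantile-normalised the arrays. A probe was kept (15917 of 25697) if some line detected it, at p under 0.05, on its a and its b array. Of all probes, 23978 carried 1 gene symbol and 1719 none; symbols were updated through RefSeq. Each gene was represented by its probe with the highest mean. The arrays of a line were averaged, 1 mean per group was fitted over the 13 lines, and eBayes p-values were Benjamini-Hochberg adjusted over 10660 genes, so groups of 1 line take their spread from the others. Labels describe the lines as independent. Where all arrays of the lower group were undetected, the fold is a bound against the floor of each array.

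The 5 genes, the gene lists and the motifs were chosen with earlier results of these data known. Other genes are named by likeness (3 for each member) and by rank of rise (10). From each list they are the called genes with the largest differences or, with fewer than 2 calls, those nearest in function. Bckdha, Slc7a5, Nlrp5, Tle6, Lyz2, Coro1a, Etv5, Lum, Dcn and Tdgf1 and genes named for a count were chosen after their values were seen. Same-numbered iPSC and gPSC lines deviated together over genes only for line 3 (correlation 0.678; -0.066 to -0.068 for the others), so line numbers were not used as pairs. Alternatives were another offset, quantile normalization without background correction, the deposited values, other filters, all probes, b arrays alone and all 26 arrays. Others were a block for line or array number, only the lines of the groups compared, floored values and leaving out each line. The fit was tested on simulated data. Promoters and motifs were read from RefSeq tables for GRCm38.p6 with Python 3. The number of lines limits the precision.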

Additional observations from a re-analysis of the deposited data

How the results depend on the processing

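No difference of the 5 genes between pluripotent groups was called under any of 11 alternatives run for it, or with any of the 13 lines left out. The lowest limma adjusted p was 0.178 (Wfdc2, iPSC versus gPSC, on all 26 arrays with array letter as replicate block and line as a random block). The line-number block and the fit on only the lines of the groups compared were not run for comparisons with ESC or Fib-iPSC. With line number as a replicate block the Wfdc2 difference stayed 0.639 (limma adjusted p = 0.457), the iPSC and gPSC counts against GSC were 2422 and 2362, and no call among the 5 genes changed. All differences from GSC kept their sign; the smallest came from quantile-normalised log2 intensities without background correction (Wfdc2 in iPSC 5.23) and the largest from the authors' deposited values (10.24), so their size depends on how signal near background is treated. Counts of called genes moved by over 1.5 times as follows. Without background correction, they were 1136 in iPSC, 1062 in gPSC and 1052 in ESC against GSC (main values 2432, 2306 and 2187), 10 in iPSC and 9 in gPSC against ESC (24 and 26). An offset of 50 gave 1514 in gPSC against GSC, and 12 and 14 against ESC. The deposited values gave 17 in gPSC against ESC, and 1 each in iPSC against gPSC and against Fib-iPSC. All 26 arrays with the array-letter replicate block gave 53 and 57 against ESC, 3 in iPSC against gPSC and 5 against Fib-iPSC; arrays of a line correlate at 0.785 in that fit. The cause was not tested. With a line left out, iPSC against ESC ran from 8 (without iPSC 1) to 24 and iPSC against Fib-iPSC from 0 to 1 (without gPSC 2). Differences near 0 changed sign with a line left out: Hspb1 in iPSC minus ESC ran from -0.116 to 0.059, Bcat1 in iPSC minus gPSC from -0.356 to 0.024, Wfdc2 in gPSC minus ESC from -0.291 to 0.021 and Laptm5 in gPSC minus ESC from -0.036 to 0.088. Undetected GSC signals of Wfdc2 and Laptm5 leave only bounds on the fold, each for 1 probe under 1 normalization. Bcat1 was detected on 1 of 4 GSC arrays. The counts of gene lists under another normalization and without gPSC 1 were added after seeing the data.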
